A study of Mus musculus with 80 samples.

Results

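The circadian clock genes followed here were Arntl, Clock, Per1, Per2, Per3, Cry1, Cry2, Nr1d1, Nr1d2 and Dbp. They were chosen by name, as 10 of the 32765 rows of each count table, and all 10 passed the filter on low counts in every tissue. Poly(A) RNA had been sequenced from brown fat (BAT), inguinal white fat (iWAT), skeletal muscle and liver of male mice on a C57BL/6J background. There were 80 libraries, 5 for each of the 4 tissues in each of 4 genotypes. The genotypes were wildtype (WT), UCP1 KO mice, which lack the uncoupling protein of brown fat, FGF21 KO mice, which lack the hormone FGF21, and UCP1/FGF21 double knockouts (dKO), bred from crosses of the single knockout lines and written in 1 of the labels as UCP1/FGF12. The mutant alleles were carried in every cell and from conception, and all mice, WT included, had been raised at 30 °C, then kept at room temperature on high-fat diet for 3 weeks from an age of 10 to 12 weeks. Food was taken away 2 to 3 h before the tissues were collected, 3 to 4 h after lights on by the study's methods, and no clock time of an individual mouse was used here. The labels did not tie libraries of different tissues to the same animal.

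The clock of a cell is a transcriptional loop. CLOCK and BMAL1, the product of Arntl, bind E-boxes as a pair and switch on Per and Cry genes, whose proteins return to block them. The same pair drives Nr1d1 and Nr1d2, encoding REV-ERBα and REV-ERBβ, which repress Arntl through ROR response elements (ROREs), and Dbp, a PAR bZIP factor that acts on D-boxes in genes such as Per3. In tissues of the mouse, Arntl, Clock and the related Npas2 run high around dawn, Nr1d1, Dbp and Per genes rise in the course of the light phase, and Cry1 lags behind the other targets. Feeding, body temperature and glucocorticoids can shift this rhythm outside the brain, so a set of clock transcripts from 1 time of collection reads both a level and a phase.

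These regulatory letters were looked up in the RefSeq promoter windows (GRCm38.p6, 250 bases before to 50 after a start), which covered 9 of the 10 genes in 13 windows; Per2 had no entry. Both strands were searched for the E-box CACGTG, the D-box TTATGTAA and TTACGTAA, the RORE cores TAGGTCA and TGGGTCA and the cyclic AMP element TGACGTCA. The motifs did not overlap each other in these windows. The E-box was present in the windows of Cry1 and Per1, at positions -60 and -166 from the start, against 7.15% of all 32851 windows. Per3 held the D-box TTATGTAA at 2 places, -205 and -158, against 0.938% of windows with at least 1. Arntl held TAGGTCA at position 31 after its start, against 2.61% of windows. The other members had none of these letters in their windows, which says nothing about sites elsewhere. The stretches below carry these matches, and Cry1 comes before the others because it was the member with the clearest difference between genotypes; capitals mark the motif.
Cry1, chr10:85185065-85185304, minus strand: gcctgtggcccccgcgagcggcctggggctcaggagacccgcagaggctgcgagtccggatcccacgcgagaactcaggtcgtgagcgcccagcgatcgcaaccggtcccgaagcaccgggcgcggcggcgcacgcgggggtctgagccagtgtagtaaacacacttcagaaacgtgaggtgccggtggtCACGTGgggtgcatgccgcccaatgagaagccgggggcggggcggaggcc
Per1, chr11:69098699-69098947, plus strand: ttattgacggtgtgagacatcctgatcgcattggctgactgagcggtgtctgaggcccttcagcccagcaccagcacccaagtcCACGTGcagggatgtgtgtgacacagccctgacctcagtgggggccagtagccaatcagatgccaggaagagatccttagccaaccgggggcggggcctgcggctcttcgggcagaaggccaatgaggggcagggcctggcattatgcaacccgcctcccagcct
Per3, chr4:151044666-151044915, minus strand: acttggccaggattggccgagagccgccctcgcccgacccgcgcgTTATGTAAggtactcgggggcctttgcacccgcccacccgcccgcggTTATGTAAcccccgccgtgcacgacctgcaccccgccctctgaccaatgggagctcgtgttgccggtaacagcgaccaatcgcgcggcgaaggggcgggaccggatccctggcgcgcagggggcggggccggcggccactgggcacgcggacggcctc
Arntl, chr7:113207529-113207556, plus strand, inside the transcribed start of the gene: gaaggcagaaagTAGGTCAgggacggag

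Total counts ran from 28691379 to 50380704 per library, so that the smallest count of any member in any library was 50 reads (Dbp in a dKO liver). The targeted genes followed the labels in BAT for Ucp1 and in liver for Fgf21. In BAT, Ucp1 had 98548 to 258096 reads in libraries with intact Ucp1 and 24291 to 90118 in UCP1 KO and dKO libraries, where the mutated allele still gave reads, and in liver Fgf21 had 29 to 107 reads with intact Fgf21 and 0 to 3 without. In iWAT, Ucp1 reads ran against the label, with 3942 to 20264 in libraries labelled UCP1 KO and 196 to 1189 in those labelled dKO, beside 6 to 733 for FGF21 KO and 109 to 776 for WT, and in liver and muscle the genotypes overlapped, so outside BAT Ucp1 reads do not check the UCP1 label. The tissues carried their own markers. BAT also held skeletal muscle transcripts in unequal amounts, given beside the BAT results. In iWAT, lymph node markers (8 B and T cell genes) ranged from -0.40 to 7.68 in mean log2(CPM + 0.1), and 9 of 20 libraries lay above 4. CPM below is the usual read count scaled to library depth, with TMM factors taken within a tissue unless stated, and genes were called at an adjusted p under 0.01 in edgeR's quasi-likelihood test over all genes of the tissue. Nr1d1 (chr11:98767932-98775333, minus strand) overlaps the 3′ end of Thra on the opposite strand by 1075 bases, and since the strand setting of the counting was not given, reads from the overlap cannot be assigned to either gene with certainty.

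In WT mice, the REV-ERB genes were the most abundant members in every tissue once counts were divided by exon length. On the scale set over all 80 libraries, Nr1d1 ranked highest with 42.0 ± 2.74 CPM per kb in liver and 64.5 ± 5.61 in muscle (SD, n = 5), with BAT (52.9 ± 8.80) and iWAT (43.6 ± 7.68) between. Nr1d2 came next at 9.97 ± 2.06 in iWAT to 35.3 ± 3.69 in muscle. Arntl was the lowest member in BAT (1.35 ± 0.79) and liver (2.51 ± 1.99), Cry1 in iWAT (1.74 ± 0.54) and Per2 in muscle (2.85 ± 1.38). The 5 WT values of Dbp in BAT ran from 2.49 to 16.5 CPM per kb.

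Muscle stood apart from BAT and iWAT, but not from liver, for Arntl and Cry1. WT muscle had 30.1, 35.6, 41.2, 45.6 and 49.0 CPM of Arntl on the 80-library scale. WT BAT had 3.39, 4.88, 11.2, 13.8 and 17.5, and iWAT 9.45, 10.7, 14.6, 16.6 and 26.1. Every muscle library was above every BAT and iWAT library, while the liver values of 4.10 to 42.0 overlapped with muscle. The log2 difference of BAT from muscle was -1.99 ± 0.35 (SE, adjusted p = 1.08e-06). The mean of Cry1 was also highest in muscle, with 18.1 ± 2.71 CPM in muscle, 10.4 ± 1.39 in BAT, 9.62 ± 4.59 in liver and 5.81 ± 1.82 in iWAT (SD, n = 5). The highest liver library, at 17.4 CPM, lay above the lowest of muscle, at 14.5. For Cry1, BAT and liver did not pass the test against each other. Nr1d2 was called in all 6 pairs of tissues, from 191 ± 19.9 CPM in muscle over 142 ± 29.2 in liver and 96.3 ± 16.6 in BAT to 53.9 ± 11.1 in iWAT. Per2 was higher in liver (40.1 ± 17.7) than in BAT, iWAT and muscle (15.6 to 19.7 as means). Cry2, Nr1d1 and Per3 were called in none of the pairs. Of the 10 members, 3 were called between BAT and iWAT, BAT and liver, or BAT and muscle, 5 between iWAT and liver, 4 between iWAT and muscle and 5 between liver and muscle. The shares of all 18297 genes called in these pairs were 55.8%, 63.1%, 59.3%, 70.8%, 70.2% and 70%, so in every pair a smaller share of clock genes than of all genes was called.

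Within BAT, Cry1 was the 1 member called for UCP1 KO against WT. Its CPM was 9.76, 9.94, 10.2, 10.7 and 13.3 in WT and 7.32, 7.75, 8.75, 9.03 and 12.1 in FGF21 KO. It was 16.4, 18.5, 18.9, 19.8 and 22.7 in UCP1 KO and 21.6, 22.0, 23.7, 24.9 and 25.3 in dKO. All 10 libraries without UCP1 thus lay above all 10 with it, a separation seen in 8.73% of genes in BAT (4.09% upward), and Cry1 was the only member that showed it. Cry1, a repressor of CLOCK and BMAL1, was 1.78-fold higher in UCP1 KO than in WT (log2 0.83 ± 0.12 SE, adjusted p = 4.8e-05), 2.18-fold higher in dKO than in WT (log2 1.12 ± 0.12, adjusted p = 3.54e-06) and 2.62-fold higher in dKO than in FGF21 KO (log2 1.39 ± 0.12, adjusted p = 6.85e-07). Each pair of groups gave p = 0.00794 in a two-sided exact permutation test, the smallest that 5 against 5 libraries allow. As in any bulk tissue, more RNA per cell and more cells that carry it cannot be told apart.

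The shares of all genes called in BAT put this count in proportion. Over all 4 genotypes 2 of 10 members were called, Cry1 (adjusted p = 1.67e-07) and Arntl (adjusted p = 0.00716), against 29.7% of 15729 genes. For UCP1 KO against WT it was 1 of 10, beside 25.2% of genes, for dKO against FGF21 KO 1 of 10, beside 13.5%, and for UCP1 KO against FGF21 KO 1 of 10, beside 22.4%. For dKO against WT it was 3 of 10, beside 21.1%. Members whose libraries did not overlap numbered 1 in UCP1 KO against WT, 2 in dKO against WT and 3 in dKO against FGF21 KO, where 23.5%, 24.8% and 18.6% of all genes did the same. The share of members called was below that of all genes in the comparisons named here other than dKO against WT, where it was above; there it also fell below, to 1 of 10, without WT replicate 4, without dKO replicate 5, with the muscle score as covariate or with the compared genotypes fitted alone. For dKO against FGF21 KO, 1 of 10 was close to the 13.5% of all genes. There the count was 2 of 10 without WT replicate 1, WT replicate 5 or dKO replicate 4, and 3 of 10 with the compared genotypes fitted alone. The median absolute log2 change of the members was 0.38 in UCP1 KO and 0.53 in dKO, beside 0.29 and 0.28 over all genes.

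Skeletal muscle transcripts moved with genotype in BAT. The mean log2(CPM + 0.1) of 10 muscle markers, all of them detected in every BAT library, was 1.27 to 3.33 in WT, 1.45 to 5.09 in FGF21 KO, 2.30 to 9.60 in UCP1 KO and 2.77 to 8.70 in dKO, beside 13.2 to 13.4 in muscle itself. Among UCP1 KO libraries, the one with the highest score (9.60) had the lowest Cry1 (16.4 CPM), and that with the lowest score (2.30) had 18.5 CPM. In FGF21 KO the highest score (5.09) went with the highest Cry1 (12.1 CPM). With the score as covariate Cry1 was still called, with log2 changes of 0.79 (adjusted p = 0.000245) in UCP1 KO and 1.05 (adjusted p = 0.000131) in dKO against WT. In the 15 libraries at or below the highest score of WT and FGF21 KO, which leave 3 of UCP1 KO and 2 of dKO, the values were 0.82 (adjusted p = 0.000524) and 1.12 (adjusted p = 0.000158). Liver markers, scored in the same way, also differed between BAT groups. They were at 0.68 to 1.31 in WT, 0.22 to 2.87 in FGF21 KO, 0.93 to 2.41 in UCP1 KO and 2.56 to 2.88 in dKO. In liver itself they were at 12.8 to 13.5, and their part in the BAT values was not tested.

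Arntl, the activator of the loop, had its highest BAT level in dKO. The values in WT were 3.50, 5.01, 11.6, 14.3 and 18.2 CPM, and in FGF21 KO 9.80, 10.3, 13.2, 14.0 and 14.9. UCP1 KO had 13.7, 15.3, 16.8, 19.3 and 21.6, and dKO 19.3, 23.3, 25.7, 28.2 and 33.6. The dKO libraries lay above all WT and all FGF21 KO libraries, whereas UCP1 KO overlapped with both. Arntl rose 2.48-fold in dKO against WT (log2 1.31 ± 0.31, adjusted p = 0.00365; exact permutation p = 0.00794). Against FGF21 KO the log2 difference of dKO was 1.06 ± 0.31 (adjusted p = 0.0164), and for UCP1 KO against WT it was 0.72 ± 0.31 (adjusted p = 0.0700), neither past the threshold in the main fit. The difference of dKO from FGF21 KO was called by DESeq2 (adjusted p = 0.00298) and with these 2 genotypes fitted alone (adjusted p = 0.00108). It was also called without WT replicate 1 (adjusted p = 0.00994) or 5 (adjusted p = 0.00433), but in none of the other 18 fits without 1 library. The dKO call against WT was lost with the muscle score as covariate (log2 1.24, adjusted p = 0.0241), in the 15 libraries of low score (log2 1.44, adjusted p = 0.0176), with dKO and WT fitted alone (adjusted p = 0.0185) and without WT replicate 4 (log2 1.13, adjusted p = 0.0102) or dKO replicate 5 (log2 1.20, adjusted p = 0.0103). The Arntl call over all 4 genotypes was lost with the muscle score as covariate (adjusted p = 0.0704) and in the 15 libraries of low score (adjusted p = 0.0458). It was also lost without any 1 of several libraries, such as WT replicate 4 (adjusted p = 0.0103) or dKO replicate 5 (adjusted p = 0.0228). Clock, its partner, stayed between 52.0 and 74.4 CPM in all 20 BAT libraries and was called in no comparison.

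**Figure D1:**
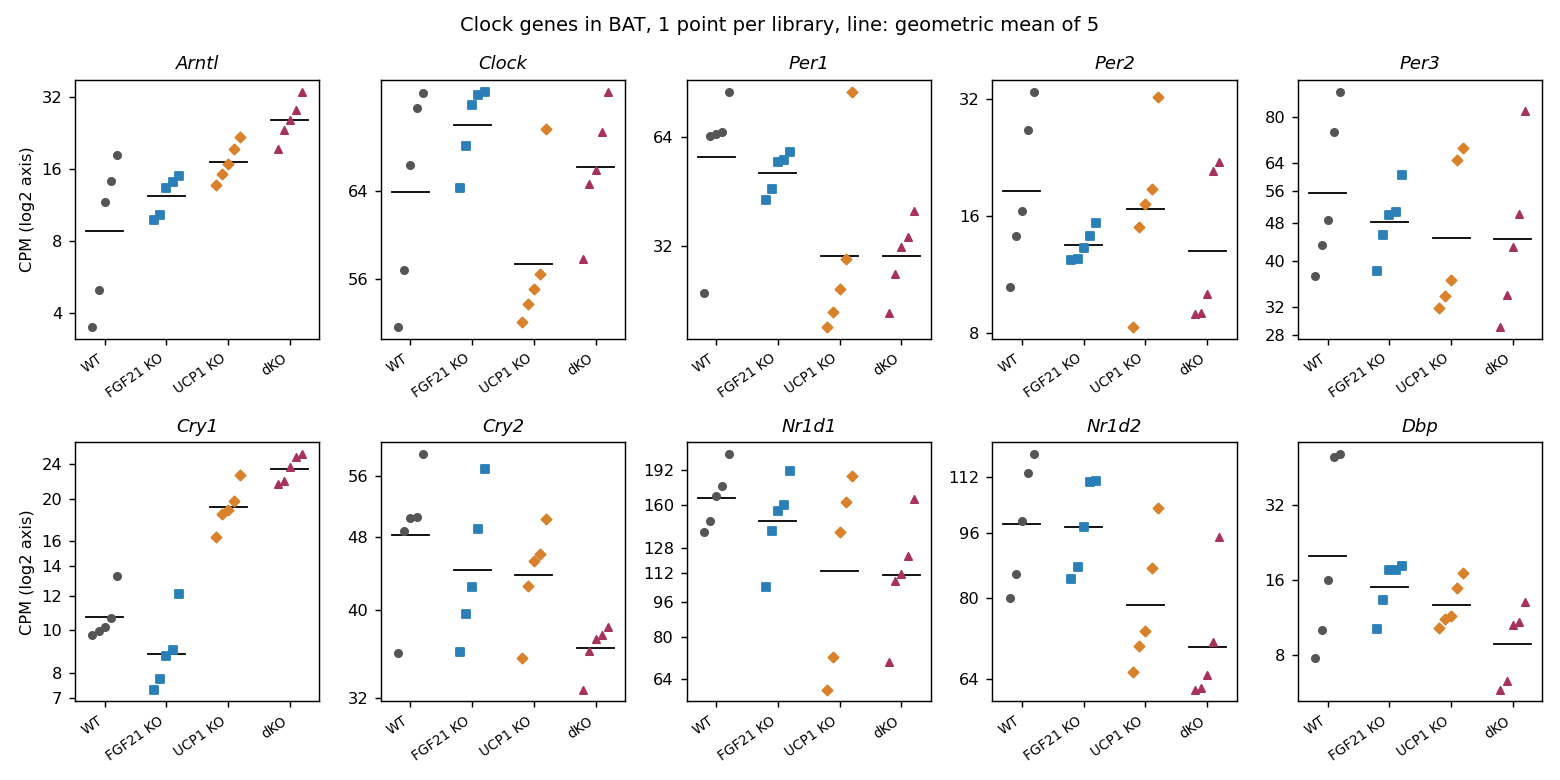
CPM of the 10 clock genes in BAT on log2 axes that differ between panels, with 1 point per library and a line at the geometric mean of the 5 libraries of a genotype. Cry1 is 7.32 to 13.3 CPM in the 10 libraries of WT and FGF21 KO and 16.4 to 25.3 in those of UCP1 KO and dKO, whereas the other 9 genes overlap.

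Dbp, the output factor, went the opposite way in dKO, but on a wide spread. WT values were 7.73, 10.04, 16.01, 49.96 and 51.2 CPM, FGF21 KO 10.2, 13.3, 17.5, 17.5 and 18.2, UCP1 KO 10.3, 11.1, 11.5, 14.8 and 17.0, and dKO 5.79, 6.27, 10.5, 10.8 and 13.0. Only 2 WT libraries stood high, and the other 3 lay among the values of the mutants. The log2 change of dKO against WT was -1.54 ± 0.42 (adjusted p = 0.00881), yet the exact permutation test on log2 CPM gave p = 0.111. Without WT replicate 4 or WT replicate 5, the 2 high libraries, it was -1.20 (adjusted p = 0.0351) or -1.17 (adjusted p = 0.0362), and with the muscle score as covariate -1.30 (adjusted p = 0.0691).

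Among the repressors other than Cry1, Per1 had 23.7, 64.5, 65.3, 66.2 and 85.9 CPM in WT BAT and 19.1, 20.9, 24.3, 29.4 and 85.8 in UCP1 KO. In each of these groups 4 libraries lay close together and 1 lay among those of the other group. The log2 difference was -0.77 ± 0.36 (adjusted p = 0.0940) and became -1.38 (adjusted p = 0.000425) without UCP1 KO replicate 1. In dKO, Per1 was at 20.8 to 40.0 CPM (log2 -0.996 ± 0.36 against WT, adjusted p = 0.0369), below all FGF21 KO libraries at 43.0 to 58.2. Nr1d2 had 62.1 to 94.7 CPM in dKO and 80.1 to 119 in WT (log2 -0.49 ± 0.15, adjusted p = 0.0138). Cry2 had 32.7 to 38.3 CPM in dKO and 35.9 to 59.2 in WT (log2 -0.43 ± 0.13, adjusted p = 0.0133). Neither passed in edgeR, while DESeq2 called both (log2 -0.48, adjusted p = 0.00518, and log2 -0.42, adjusted p = 0.00695). Nr1d1, Per2 and Per3 had adjusted p-values of 0.118 or more in UCP1 KO and dKO against WT. Their ranges overlapped widely: Per2 was 8.29 to 32.4 CPM in UCP1 KO, 8.97 to 22.1 in dKO and 10.5 to 33.5 in WT, Per3 31.9 to 68.6, 29.1 to 82.2 and 37.1 to 90.3, and Nr1d1 60.7 to 186, 70.0 to 165 and 139 to 209. Averaged over both FGF21 states, a contrast added after the data were seen, loss of UCP1 raised Cry1 (log2 1.11 ± 0.09, adjusted p = 1.4e-08) and Arntl (0.89 ± 0.22, adjusted p = 0.00225) and lowered Nr1d2 (-0.39 ± 0.10, adjusted p = 0.00353), 3 of 10 against 38.4% of all genes. Of these, Cry1 alone was called with the muscle score as covariate.

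Of 22 other clock genes, 5 passed the threshold for UCP1 KO against WT in BAT and 4 for dKO against WT, no larger a share than the 25.2% and 21.1% of all genes. Nfil3, whose product competes with DBP for D-boxes, rose by log2 1.12 ± 0.23 in UCP1 KO (adjusted p = 0.00113) and 1.76 ± 0.24 in dKO (adjusted p = 2.98e-05). Tef and Hlf, the PAR bZIP relatives of Dbp, were lower, Tef by log2 -0.96 ± 0.18 in UCP1 KO (adjusted p = 0.000418) and -0.84 ± 0.18 in dKO (adjusted p = 0.00159), Hlf by -1.03 ± 0.24 in UCP1 KO (adjusted p = 0.00215). Rora, a nuclear receptor that acts on ROREs, rose by 0.61 ± 0.10 in UCP1 KO (adjusted p = 8.81e-05) and 0.66 ± 0.10 in dKO (adjusted p = 5.47e-05). Cipc, which inhibits CLOCK, rose by 0.43 ± 0.08 (adjusted p = 0.000242) and 0.35 ± 0.08 (adjusted p = 0.00188). The other 17 genes were not called between UCP1 KO and WT. Of 9 genes that respond to temperature or glucocorticoids, 1 was called in each comparison, a smaller share than the 25.2% and 21.1% of all genes. It was the cold-inducible RNA-binding Rbm3, at log2 0.34 ± 0.09 in UCP1 KO (adjusted p = 0.00768) and 0.41 ± 0.09 in dKO (adjusted p = 0.00226).

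FGF21 loss on its own was asked by comparing FGF21 KO with WT, and dKO with UCP1 KO. In BAT 0 of 10 members were called by edgeR in either, against 0% of genes in FGF21 KO against WT and 0.0636% in UCP1 KO against dKO. DESeq2 also called 0, and 1 and 2 members had an unadjusted p under 0.05, a level for which the share of all genes is not given here. The interaction, which asks whether the effect of UCP1 loss depended on FGF21, called 0 members and 0% of genes. Its value for Cry1 was log2 -0.55 ± 0.17 (adjusted p = 0.904), a smaller rise with FGF21 present than without. Dbp lies on the chromosome of the deleted hormone, 89.6 kb from Fgf21 (chr7:45705088-45710203 and chr7:45613886-45615490), with 8 protein-coding genes between. In FGF21 KO against WT, Dbp differed by log2 -0.82 ± 0.42 in BAT, -0.80 ± 0.48 in iWAT, 0.03 ± 0.61 in liver and 0.02 ± 0.34 in muscle, with adjusted p-values of 0.332 or more in all 4 tissues. The BAT value was -0.48 without WT replicate 4 and -0.46 without WT replicate 5. The iWAT value was -0.45 without WT replicate 4, -0.51 without WT replicate 5, -0.36 with the muscle score as covariate and 1.14, the other direction, in the 11 libraries whose lymph node score did not exceed 4, of which 1 was FGF21 KO.

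Outside BAT, no clock gene passed the threshold in any of the 9 genotype comparisons of iWAT, liver or muscle. Few genes of any kind did. Over all 4 genotypes 1.74% of genes were called in iWAT, 0.34% in liver and 0.086% in muscle. The shares for UCP1 KO, FGF21 KO and dKO against WT were 0.61%, 0.00575% and 0.0173% in iWAT, 0.0694%, 0.229% and 0.0416% in liver, and 0.0265%, 0.00662% and 0.0529% in muscle. Those for UCP1 KO against dKO, dKO against FGF21 KO and UCP1 KO against FGF21 KO were 0.466%, 0.0115% and 3.76% in iWAT, 0.00694%, 0.00694% and 0.0972% in liver, and 0%, 0.0595% and 0.0265% in muscle. Loss of UCP1 averaged over both FGF21 states gave 0.127%, 0.104% and 0.106%, and the interaction 0% in each. DESeq2 also called 0 members in every comparison for which it was run, and the number with an unadjusted p under 0.05 was 0 to 2 in iWAT, 0 to 5 in liver and 0 to 3 in muscle. The 5 in liver were for UCP1 KO against dKO, followed by 4 for dKO against FGF21 KO and 4 for the interaction. The shares of all genes at this unadjusted level are not given here, so these counts are not read further. None of the 22 other clock genes was called in iWAT, liver or muscle either. Among the temperature and glucocorticoid genes, Rbm3 was lower in iWAT of UCP1 KO than of FGF21 KO (log2 -0.73 ± 0.16, adjusted p = 0.00842), and the rest were not called. In iWAT, Per1 was split within UCP1 KO. Its UCP1 KO values were 25.9, 32.7, 32.8, 33.5 and 121 CPM, against 48.5, 74.0, 77.1, 94.0 and 97.6 in WT. The 4 lower libraries lay below every WT library and 1 lay above all of them. Without that library, replicate 1, the log2 difference was -1.32 (adjusted p = 0.00232), and with it -0.67 ± 0.34 (adjusted p = 0.389). The same library had the highest skeletal muscle score of all iWAT libraries, 10.4 beside 1.21 to 9.75 in the others, and its part in the Per1 value was not tested.

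Nr1d1 in iWAT is given beside the lymph node score. Nr1d1 was 60.1, 91.2, 95.6, 109 and 229 CPM in FGF21 KO, against 175, 176, 210, 238 and 266 in WT (log2 -0.86 ± 0.31, adjusted p = 0.249). The single FGF21 KO library with few lymph node transcripts, replicate 2 with a score of 0.304 beside 7.24 to 7.68 in the other 4, was also the one with the highest Nr1d1, Dbp (36.4 CPM) and Cry2 (96.8 CPM) of its genotype. Among the 11 libraries of iWAT whose score did not exceed 4, the log2 difference of Nr1d1 between FGF21 KO and WT was 0.15.

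Cry1 showed how far the BAT change was shared. UCP1 KO against WT gave log2 0.29 ± 0.24 in iWAT, -0.34 ± 0.35 in liver and 0.23 ± 0.12 in muscle, with adjusted p-values from 0.553 to 0.785. Tested as a difference between tissues, the change in BAT exceeded that in liver by log2 1.19 ± 0.34 (adjusted p = 0.0143), which missed the threshold. No member was called at 0.01 for a difference of this change in any of the 6 tissue pairs, so a change particular to BAT was not shown. The shares of all genes called for such a difference were 10.5% for BAT and iWAT, 5.38% for BAT and liver, 4.31% for BAT and muscle, 3.03% for iWAT and liver, 1.93% for iWAT and muscle and 0.0109% for liver and muscle.

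**Figure D2:**
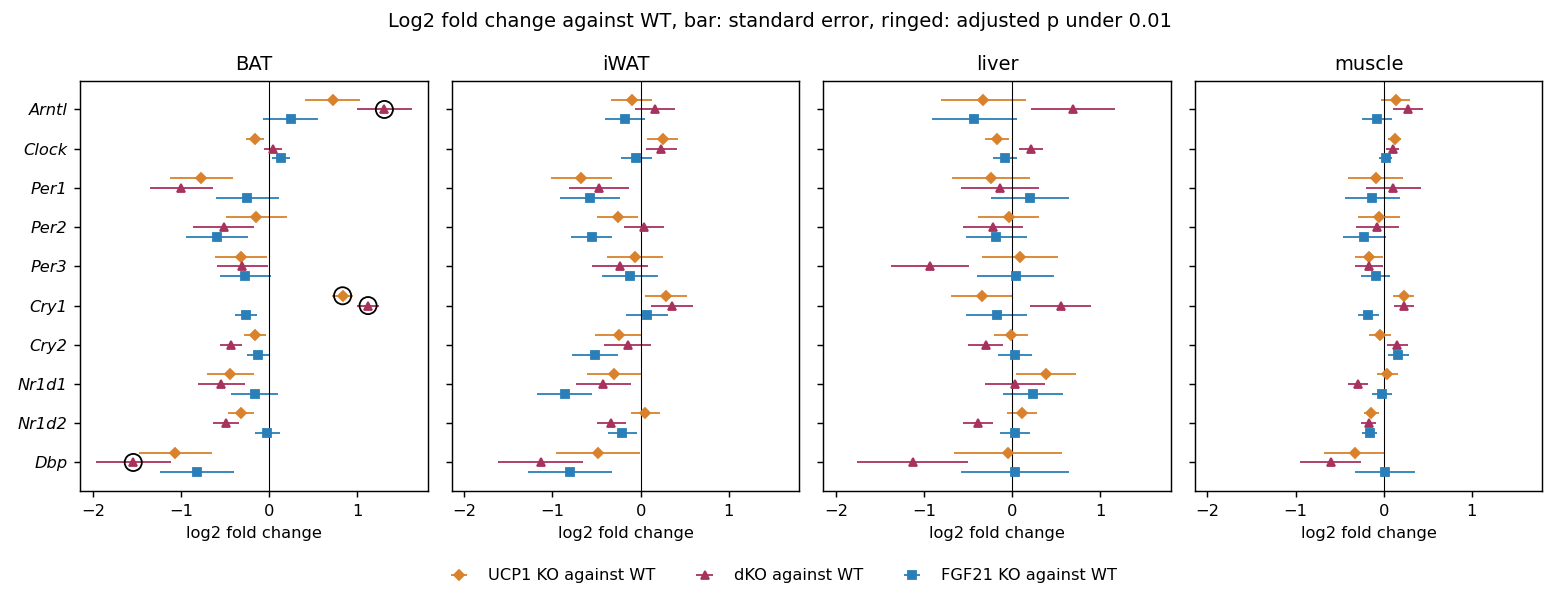
Log2 fold change against WT of the 10 clock genes in each tissue for UCP1 KO, dKO and FGF21 KO, with standard errors as bars and rings where the adjusted p was under 0.01. The 4 rings are all in BAT: Cry1 in UCP1 KO (0.83) and dKO (1.12), Arntl in dKO (1.31) and Dbp in dKO (-1.54).

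The spread between libraries of one genotype was the other feature of these genes. The SD of log2 CPM, pooled over the 4 genotypes, had a median over the 10 members of 0.61 in liver, 0.48 in BAT, 0.41 in iWAT and 0.25 in muscle. The median over all tested genes was 0.22, 0.23, 0.40 and 0.16. The members were thus more variable than the typical gene in liver, BAT and muscle, and about as variable in iWAT, where all genes spread widely. Dbp had the largest SD of the members in each tissue: 1.29 in liver, 0.78 in iWAT, 0.73 in BAT and 0.63 in muscle, above 99.7%, 81.8%, 93.3% and 95.6% of genes. These pooled values were uneven between genotypes. In BAT the SD of Dbp was 1.28 in WT and 0.31 to 0.52 in the others, and in liver 2.28 in dKO and 0.34 in FGF21 KO. Within a genotype other members could spread more, such as Per1 in UCP1 KO BAT (0.88, Dbp 0.31) and UCP1 KO iWAT (0.89, Dbp 0.63) and Arntl in FGF21 KO liver (0.54). In liver, Arntl (0.88), Per1 (0.86) and Per3 (0.82) followed, above 98.5%, 98.3% and 97.96% of genes. Clock was among the steadiest members, with an SD of 0.12 in muscle to 0.29 in iWAT. Cry1 had a small SD in BAT (0.19, above 41.8% of genes) and a large one in liver (0.59, above 92.2%).

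**Figure D3:**
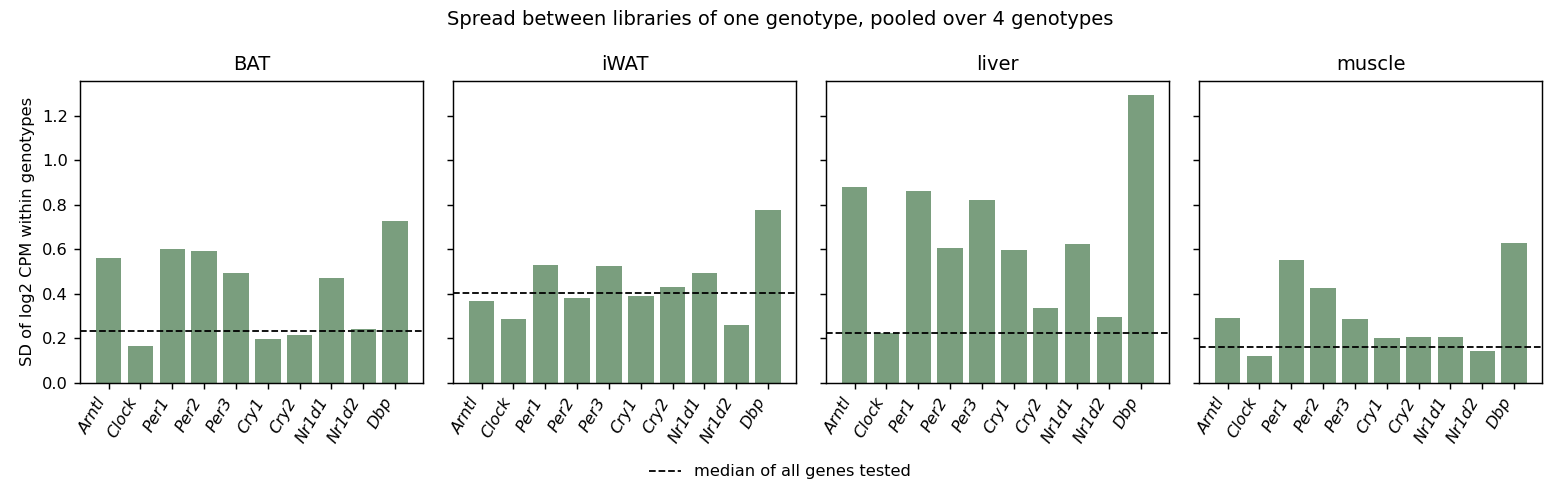
SD of log2 CPM between libraries of the same genotype, pooled over the 4 genotypes, for each clock gene and tissue, with a dashed line at the median of all genes tested in that tissue. Dbp is the tallest bar in every tissue, 1.29 in liver, while Clock lies at or below the line in all 4.

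Liver shows this spread most plainly. Dbp in WT liver was 14.9, 25.6, 34.6, 71.6 and 87.1 CPM, in FGF21 KO 35.6, 39.4, 45.2, 58.7 and 60.5, in UCP1 KO 24.5, 40.9, 45.5, 49.7 and 65.7, and in dKO 1.22, 3.17, 19.9, 40.5 and 41.9. From the lowest to the highest liver library this was a 71.4-fold range, and 2 dKO libraries lay far below the other 18. The log2 difference of dKO from WT, -1.13 ± 0.63, did not pass (adjusted p = 0.499). The same 2 dKO libraries, replicates 2 and 4, had the 2 lowest Per3 values of all liver libraries, 2.61 and 6.85 CPM, and the 2 lowest of Nr1d1, 35.01 and 44.9 CPM. They also had high Arntl, 39.9 and 29.9 CPM, with 3.14 to 31.4 in WT, and replicate 2 had the most Clock (94.9 CPM) and Cry1 (19.2 CPM) and the least Per1 (2.42 CPM) of all liver libraries. Their total counts, 39039365 and 28691379, were among the larger and the smallest, and their liver markers were in the range of the others.

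Muscle of dKO held a smaller version of this arrangement. Dbp was 8.80, 14.7, 22.8, 39.4 and 42.4 CPM, against 18.4 to 62.4 in WT (log2 -0.60 ± 0.35, adjusted p = 0.503). The library with the least Dbp, replicate 4, had the most Arntl (61.7 CPM), Clock (58.9) and Cry1 (21.4) of all muscle libraries and the least Per3 (15.5) and Nr1d1 (95.2). The next lowest in Dbp, replicate 3, had Nr1d1 of 103 CPM, where the other 18 muscle libraries had 145 to 188.

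In each of the 4 tissues the WT libraries themselves fell along this axis. The order of the 5 WT libraries by Arntl, from most to least, was their order of deposit in every tissue. The labels do not say whether libraries at the same place came from 1 mouse, or whether the deposit followed the order of collection, so the 4 tissues may not be independent and the spread within WT cannot be told apart from an order of collection. In WT iWAT, the 2 libraries with the least Arntl (15.1 and 17.2 CPM) had the most Dbp (59.3 and 62.5 CPM), and the library with the most Arntl (40.7) had the least Dbp (10.7). The pair with high Dbp had lymph node scores of 6.73 and 7.17, beside 0.317 to 1.96 in the other 3 WT libraries. Their skeletal muscle scores were also the highest of WT, 6.03 and 9.75 beside 1.21 to 2.64. The part of these cells in the values was not tested. In WT muscle, Arntl of 24.4 CPM went with Dbp of 62.4, and Arntl of 40.5 with Dbp of 18.4. WT BAT and WT liver had the same arrangement, with Arntl of 3.50 and 3.14 CPM beside Dbp of 51.2 and 87.1 at one end, and Arntl of 18.2 and 31.4 beside Dbp of 7.73 and 14.9 at the other.

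**Figure D4:**
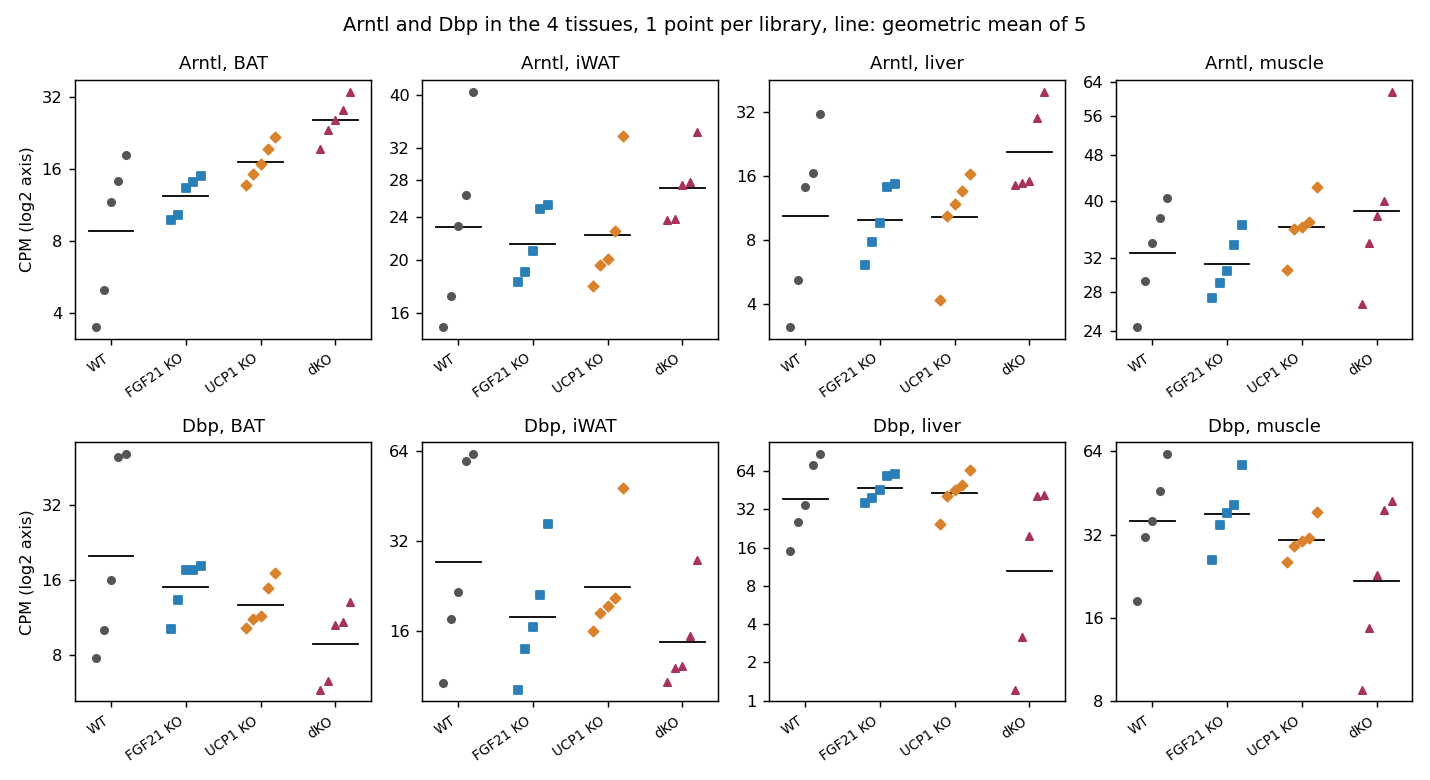
CPM of Arntl (upper row) and Dbp (lower row) in each tissue on log2 axes, with 1 point per library and a line at the geometric mean of 5. Dbp in liver runs from 1.22 to 87.1 CPM with the 2 lowest points in dKO, and in WT BAT 2 libraries at 49.96 and 51.2 CPM stand above the other 3.

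Whether Arntl and its opposite-phase partners moved together from library to library was tested on log2 CPM after removing each genotype's mean, over 20 libraries of a tissue, with 12 relations in the family and 100000 permutations within genotype. Arntl and Dbp ran against each other in iWAT (r = -0.80, permutation p = 0.00061, adjusted p = 0.0015; rho = -0.85, permutation p = 9e-05, adjusted p = 0.00036), liver (r = -0.72, permutation p = 3e-05, adjusted p = 0.00018; rho = -0.86, permutation p = 6e-05, adjusted p = 0.00036) and muscle (r = -0.85, permutation p = 5e-05, adjusted p = 0.0002; rho = -0.77, permutation p = 0.0008, adjusted p = 0.0024). Without the 2 libraries farthest from the median of Arntl, r was -0.82, -0.70 and -0.71. In BAT r was -0.67 (permutation p = 0.12, adjusted p = 0.17; rho = -0.33, permutation p = 0.28, adjusted p = 0.38), and without 2 WT libraries it fell to -0.37, so the BAT value rested on those libraries. Per3 gave r = -0.85 in liver (permutation p = 2e-05, adjusted p = 0.00018; rho = -0.88, permutation p = 4e-05, adjusted p = 0.00036), -0.81 in muscle (permutation p = 0.00017, adjusted p = 0.00051; rho = -0.70, permutation p = 0.0027, adjusted p = 0.0064) and -0.63 in iWAT (permutation p = 0.00079, adjusted p = 0.0016; rho = -0.62, permutation p = 0.0053, adjusted p = 0.011). These became -0.79, -0.64 and -0.56 without the 2 farthest libraries. In BAT it was -0.47 (permutation p = 0.075, adjusted p = 0.13; rho = -0.38, permutation p = 0.15, adjusted p = 0.22) and -0.22 without them.

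Nr1d1, which encodes 1 of the 2 REV-ERB repressors of Arntl, did not pass this test in any tissue. Its r with Arntl was -0.04 in BAT, -0.21 in iWAT, -0.21 in liver and -0.40 in muscle (permutation p = 0.8, 0.25, 0.3 and 0.32, adjusted p = 0.8, 0.33, 0.35 and 0.35), with rho of -0.06, -0.14, -0.34 and -0.18 (permutation p = 0.78, 0.56, 0.14 and 0.51, adjusted p = 0.78, 0.61, 0.22 and 0.61). Without the 2 farthest libraries r was 0.07, -0.16, -0.25 and 0.13. WT liver shows the contrast between the genes. Its Nr1d1 values were 87.9, 96.5, 97.6, 99.0 and 102 CPM, within a narrow band, while Arntl ran from 3.14 to 31.4 CPM in the same 5 libraries. Nr1d2, which encodes the other REV-ERB, was not among the tested relations. Its r with Arntl, given without a test, was -0.34 in BAT, -0.66 in iWAT, -0.79 in liver and -0.58 in muscle.

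**Figure D5:**
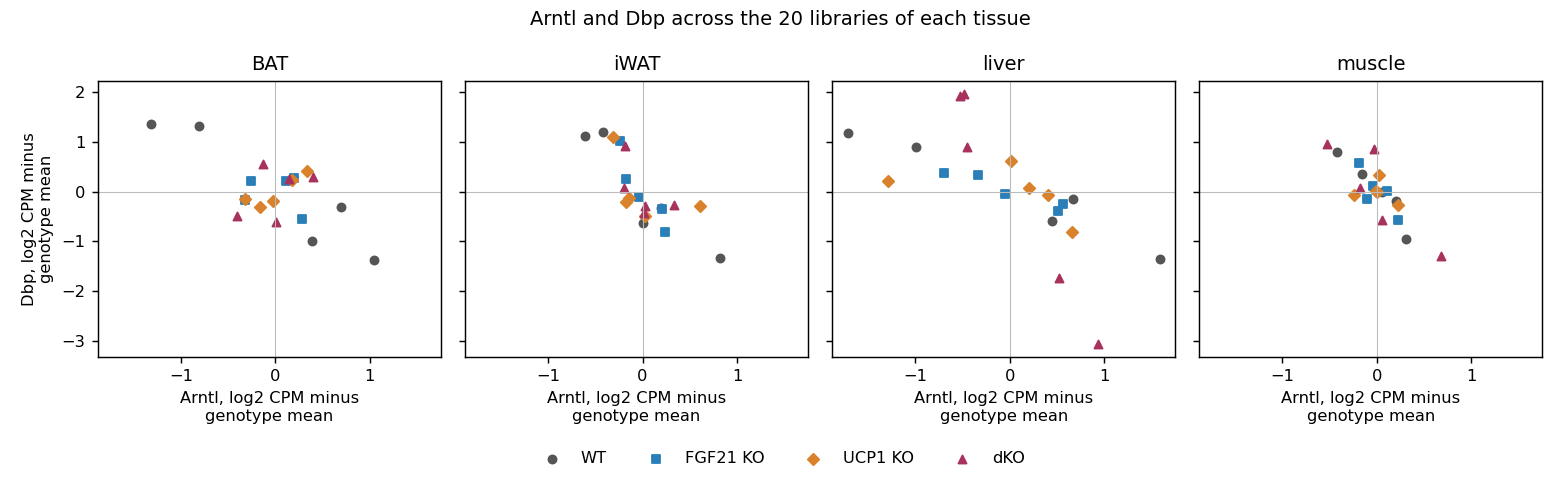
Dbp against Arntl in the 20 libraries of each tissue, both as log2 CPM minus the mean of the library's genotype, on shared axes. The points fall from upper left to lower right, with r of -0.80 in iWAT, -0.72 in liver and -0.85 in muscle, and in BAT the slope (r = -0.67) is carried by the WT libraries.

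As a description of where each library stood on this axis, a phase index was taken as the mean log2 CPM of Nr1d1, Nr1d2, Dbp and Per3 minus that of Arntl, Clock and Cry1. A high index has the genes of the light phase up. Across BAT libraries its parts did not all move together, with r to Arntl of -0.04 for Nr1d1, 0.28 for Cry1 and -0.67 for Dbp. In BAT the index is thus a summary of levels and not a measured phase. The BAT index was 0.70, 1.25, 1.502, 2.78 and 2.96 in WT and 0.97, 1.39, 1.71, 1.73 and 1.79 in FGF21 KO. UCP1 KO had 0.56, 0.74, 0.76, 0.93 and 1.16, and dKO 0.07, 0.22, 0.28, 0.31 and 0.59. The dKO libraries were all below WT and FGF21 KO, and UCP1 KO overlapped with both. Liver ran from -0.04 to 3.19 in WT, 1.37 to 2.65 in FGF21 KO, 1.00 to 2.74 in UCP1 KO and -2.25 to 1.75 in dKO. Muscle dKO ran from -0.28 to 1.52 and contained the values of UCP1 KO, 0.92 to 1.30. All 4 genotypes of iWAT overlapped, between 0.17 and 2.13. The index includes the genes called above, and in BAT those calls and the muscle marker scores moved with the same genotypes; their part in it was not tested.

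The genes whose pattern was most like Arntl over the 80 libraries, with the mean of each tissue and genotype removed, were clock genes in good part. The values were not scaled within a tissue. Liver, where the SD of Arntl was 0.88, thus weighed more than muscle, where it was 0.29. Among 13129 genes that passed the filter in all 4 tissues, those with the highest r outside the members included Npas2 (0.80), the CLOCK relative, Nfil3 (0.69), Cdkn1a (0.68), an inhibitor of cyclin-dependent kinases, and Ypel2 (0.68). The lowest belonged to Tef (-0.73), Ciart (-0.72), a repressor of the loop, Usp2 (-0.62), a deubiquitinase, Wee1 (-0.61), a cell cycle kinase, and Slc5a6 (-0.61), a vitamin transporter. The last 3 were uneven between tissues: r in liver was -0.86 for Usp2, -0.81 for Wee1 and -0.77 for Slc5a6, but Usp2 had -0.20 in iWAT, and Wee1 and Slc5a6 had -0.12 and -0.15 in muscle. On the positive side, Ypel2 had 0.86 in liver and 0.38 in iWAT. Per3 (-0.72) and Dbp (-0.72) were the 2nd and 4th lowest of all genes, and Nr1d2 (-0.61) the 7th. Clock (0.54) and Cry1 (0.57) were on the positive side. Cry1 differed by tissue in this respect, with r of 0.81 in liver and 0.60 in muscle but 0.28 in BAT and 0.08 in iWAT. Nr1d1 (-0.17) and Cry2 (-0.16) were nearer to 0, Cry2 with -0.81 in muscle alone. Libraries of different tissues may come from the same mouse, so the 80 points are not independent.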

How the data were processed

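The authors aligned 100-base paired reads of poly(A) RNA from a stranded kit with STAR to mm10 and counted them per UCSC known gene with HTSeq; the strand setting was not given in the sources used here. The deposited values were raw counts per gene, 1 table per library, with at most 15 reads (3.42e-05%) in a row that names no gene. Genes with a maximum of at most 15, a sum of at most 75 or more than 10 libraries at 0 in a tissue were removed, after the study's rule. Counts were fitted per tissue, all 20 libraries together, with edgeR 4.0.16 (TMM, quasi-likelihood test, Benjamini-Hochberg adjustment over all genes tested, 14407 to 17380 per tissue) in R 4.3.3, and for tissue contrasts over all 80 libraries. Standard errors were the fold change divided by the root of F. Log2 CPM used a prior count of 2. Permutation tests were two-sided. DESeq2 1.42.0, RLE factors, no filter, an adjusted p under 0.05, marker scores as covariates, a prior count of 0.5 and each library left out served as alternatives. On simulated counts for UCP1 KO against WT, 81% of changes of log2 1 were recovered in BAT (15361 genes) and 83% in liver (14206 genes), and 29% and 24% of those of log2 0.5. The 200 changed genes were drawn at random, so these rates are not those of the clock genes. The clock genes had a median SD of 0.48 in BAT and 0.61 in liver, beside 0.23 and 0.22 over all genes. Replicates are separate samples by the labels, which do not say more, so p-values measure the spread between these samples. The 10 members were given by name; all of them are described. The other gene lists were 22 further clock genes, 9 genes of temperature and glucocorticoid response, and marker sets of muscle, lymph node, fat and liver, and likeness to Arntl was ranked by Pearson's r, with the 5 highest and 5 lowest taken, leaving out uncharacterised names; 1 gene of that ranking is not reported here. Members and lists were chosen with earlier results of these data known. Gene positions are those of GENCODE vM21 and promoters those of RefSeq.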

Additional observations from a re-analysis of the deposited data

Results flagged for a closer look

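Each of the 160 groups of 5 libraries (10 clock genes, 4 tissues, 4 genotypes) was checked for a library whose gap to the nearest other, divided by the range of log2 CPM, exceeded 0.71. This was so in 13 groups, where chance gives about 1 in 20, or 8 of 160; 4 were in BAT, 5 in iWAT, 1 in liver and 3 in muscle. Per1 stood out most often. Its highest UCP1 KO library was apart in iWAT (gap 0.832 of the range, 121 CPM beside 33.5 for the next) and in BAT (0.713, 85.8 beside 29.4), and its lowest WT library in BAT (0.777, 23.7 beside 64.5). In muscle the lowest UCP1 KO library of Per1 (0.771, 14.1 CPM beside 32.7) and the highest dKO library (0.809, 72.3 beside 30.2) were apart. In WT iWAT the same library, replicate 1, was lowest for Per2 (0.917, 16.7 CPM beside 26.2) and Per3 (0.829, 27.6 beside 50.9). Per2 was also apart at the low end in FGF21 KO liver (0.808, 14.6 beside 27.2). Cry1 was apart in UCP1 KO iWAT (0.854, 16.5 CPM beside 10.3), UCP1 KO muscle (0.765, 13.1 beside 17.5) and WT BAT (0.713, 13.3 beside 10.7), and even that highest WT library was below every BAT library without UCP1. Clock in UCP1 KO BAT (0.751, 70.3 beside 56.4) and Dbp in UCP1 KO iWAT (0.771, 48.2 beside 20.7) complete the list. Some flags share a library: UCP1 KO replicate 1 of BAT for Per1 and Clock, UCP1 KO replicate 1 of iWAT for Per1 and Dbp, and WT replicate 1 of BAT for Per1 and Cry1. That iWAT library also had the highest skeletal muscle score of its tissue (10.4). With Cry1 in muscle, 5 of the 13 were UCP1 KO libraries numbered 1, a number that follows the order of deposit and ties no libraries across tissues by the labels. The causes were not tested.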

How the results depend on the processing

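The counts of clock genes called in liver and muscle were 0 under all alternatives, and those in iWAT under all but 1. Without UCP1 KO replicate 1, iWAT had 1 call (Per1) over all 4 genotypes and in UCP1 KO against WT, so leaving out 1 library gave 0 to 1. In BAT, leaving out 1 library gave 1 to 3 over all 4 genotypes (main 2; 1 without WT replicate 4, dKO replicate 1, 2 or 5, or FGF21 KO replicate 1, 2, 3 or 4), 1 to 2 for UCP1 KO against WT (main 1; 2 without UCP1 KO replicate 1), 1 to 2 for dKO against FGF21 KO (main 1; 2 without WT replicate 1 or 5 or dKO replicate 4), 1 to 5 for dKO against WT (main 3; 1 without WT replicate 4 or dKO replicate 5, 5 without UCP1 KO replicate 1) and 3 to 5 for loss of UCP1 averaged over both FGF21 states (main 3; 5 without WT replicate 1 or 3). At an adjusted p under 0.05 these BAT counts were 4, 2, 3, 6 and 6, and 1 gene (Cry1) differed between tissues in its UCP1 KO change, against 0. The shares of all genes at 0.05 are not given here, so these counts are not read as a result about the clock genes. With the muscle score as covariate the BAT counts were 1 over all 4 genotypes, 1 for dKO against WT and 1 for the average. Only in libraries of low muscle score, an alternative chosen after seeing the data, they were 1 over all 4 genotypes and 2 for UCP1 KO against WT (Nr1d1 added, log2 -0.89, adjusted p = 0.00983). DESeq2 gave 2 for dKO against FGF21 KO and 5 for dKO against WT, where it called 3065 and 4236 genes of any kind. Fits of the compared genotypes alone gave 3 and 1, for which the shares of all genes are not given here. Over all genes, DESeq2 called more than edgeR over all 4 genotypes: 5964 against 4677 in BAT, 1263 against 302 in iWAT, 193 against 49 in liver and 363 against 13 in muscle; in BAT it called 30 against 0 for FGF21 KO against WT. Cry1 was called against WT in UCP1 KO and dKO BAT, and in dKO against FGF21 KO, under every alternative. The dKO call of Dbp in BAT was lost in 17 of 27 alternatives, with log2 values between -1.78 and -1.17. In the 11 iWAT libraries of low lymph node score, also chosen after seeing the data, Nr1d1 and Dbp in FGF21 KO against WT (0.15 and 1.14) and Dbp in dKO against WT (0.0672) turned from lower to higher, none of them called on either side, with 1 FGF21 KO library left, assumed to vary like the other groups. The other causes were not tested. Between liver and muscle in WT, RLE factors ended the call of Clock (adjusted p = 0.0123, against 0.00234). With RLE factors or a prior count of 0.5, the correlations of Arntl and the spreads kept their direction and side. Without the 2 farthest libraries, r with Nr1d1 changed sign in BAT (-0.04 to 0.07) and muscle (-0.40 to 0.13). The lowest count of a member in any library was 50. No paired analysis was possible because the labels name no animals and give no replicate numbers, and the numbers used here only follow the order of deposit; the contrasts of tissues treat libraries as independent.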
